A study of Mus musculus with 10 samples.

Results

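A small class of mouse promoters was accessible in every library from the assay for transposase-accessible chromatin (ATAC-seq) made on cultured neural stem and progenitor cells (NSPCs) and carried no peak of trimethylated histone H3 lysine 4 (H3K4me3). The members were selected on peak presence. Overlapping or abutting peaks of the 6 deposited ATAC-seq lists were merged over chromosomes 1 to 19, giving 105302 sites. Of these, 22589 (21.5%) had a peak in all 6 lists and are called constitutively open below. A constitutively open site that overlapped the 1 kb on either side of an annotated transcription start site (TSS) was called a promoter, and 12303 sites met this rule. The 1069 members are the promoters that overlapped no H3K4me3 peak in quiescent or activated NSPCs. They made up 8.69% of the constitutively open promoters, with an exact 95% binomial interval over sites of 8.20 to 9.20%. A further 11052 promoters carried H3K4me3 in both states and 182 in 1 state. The members are compared with those 11052 marked promoters and with 8267 constitutively open sites that lay away from promoters and had no H3K4me3 (distal sites).

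The cells were C57BL/6 NSPCs from postnatal day 5, at early passage. Such cultures are a mixture of stem and progenitor cells and not a sorted population. All cells received FGF2 at 20 ng/ml. Activated NSPCs also received EGF at 20 ng/ml, and quiescent NSPCs received BMP4 at 25 ng/ml without EGF, for 4 days according to the sample labels, while the study's methods give a shorter time for the ATAC-seq libraries. Reactivated NSPCs spent 4 days in BMP4 and then 9 to 12 days in the activating medium. Each of the 3 states had 2 ATAC-seq libraries. The methods describe those of quiescent and activated NSPCs as biologically independent, and a supplementary legend calls the reactivated ones biological replicates. H3K4me3 was profiled by chromatin immunoprecipitation in 1 quiescent and 1 activated library, each with an input, so absence of the mark has no replicate check and was not measured in reactivated NSPCs. The ATAC-seq lists held 46071 to 59108 peaks on these chromosomes in quiescent and activated NSPCs and 103186 and 103783 in reactivated NSPCs, and the H3K4me3 lists held 16584 (quiescent) and 15417 (activated). The total reads of each library were not used here. Promoter peaks were listed for 11 or 12 of 12 NSPC marker genes in each ATAC-seq library, against 1 or 2 of 8 microglia and blood markers, 0 to 2 of 5 endothelial markers, 1 to 3 of 6 markers of myelinating oligodendrocytes, 4 or 5 of 6 neuronal markers and 3 to 5 of 5 astrocyte markers. The part of other cells in the results was not tested.

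Accessible promoters are stretches of DNA from which nucleosomes have been displaced, and most of them carry H3K4me3 on the nucleosomes that flank the start site. H3K4me3 is deposited by SET1 and MLL methyltransferase complexes, which contain or recruit CXXC domain proteins that bind unmethylated CpG dinucleotides, so the mark is concentrated at CpG islands. Enhancers and insulators are accessible as well but usually carry little H3K4me3. CTCF, the zinc finger protein that anchors chromatin loops, binds a long motif at many such sites and keeps them open in most cell types.

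The sequences under the summits are shown for their CpG dinucleotides. The windows below are 150 bases centred on the median ATAC-seq summit, read 5′ to 3′ from the RefSeq GRCm38.p6 assembly (mm10), with each CG in capitals. The members shown first had the largest differences between quiescent and activated NSPCs or were among the strongest. Msantd4, Stil and Nabp1 are shown for contrast and were among the strongest promoters with H3K4me3 in both states whose windows met no exon.

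Adam22, chr5:8116667-8116816, plus strand: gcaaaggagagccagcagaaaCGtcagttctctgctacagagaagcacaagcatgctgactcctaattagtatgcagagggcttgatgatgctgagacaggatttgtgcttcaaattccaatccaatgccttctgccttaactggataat

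Clec12b, chr6:129385042-129385191, plus strand: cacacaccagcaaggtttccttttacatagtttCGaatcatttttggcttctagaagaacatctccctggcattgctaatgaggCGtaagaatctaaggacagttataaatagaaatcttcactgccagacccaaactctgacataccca

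Ift88os, chr14:57509611-57509760, plus strand: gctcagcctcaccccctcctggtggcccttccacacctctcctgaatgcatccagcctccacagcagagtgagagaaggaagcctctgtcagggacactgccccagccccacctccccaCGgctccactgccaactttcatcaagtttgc

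B230104I21Rik, chr4:154335882-154336031, plus strand: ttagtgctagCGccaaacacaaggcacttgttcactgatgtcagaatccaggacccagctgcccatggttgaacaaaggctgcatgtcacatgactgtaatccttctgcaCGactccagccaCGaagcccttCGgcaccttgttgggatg

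Naaa, chr5:92264189-92264338, plus strand: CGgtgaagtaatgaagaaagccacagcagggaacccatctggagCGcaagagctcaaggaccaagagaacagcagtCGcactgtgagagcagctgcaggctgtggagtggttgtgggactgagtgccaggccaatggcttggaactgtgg

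Msantd4, chr9:4376364-4376513, plus strand: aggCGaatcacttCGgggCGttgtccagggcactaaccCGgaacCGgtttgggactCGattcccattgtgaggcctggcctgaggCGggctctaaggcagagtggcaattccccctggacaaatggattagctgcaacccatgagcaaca

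Stil, chr4:114999940-115000089, plus strand: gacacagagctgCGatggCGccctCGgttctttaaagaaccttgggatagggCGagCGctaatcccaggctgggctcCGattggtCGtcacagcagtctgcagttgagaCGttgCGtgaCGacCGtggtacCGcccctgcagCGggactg

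Nabp1, chr1:51478434-51478583, plus strand: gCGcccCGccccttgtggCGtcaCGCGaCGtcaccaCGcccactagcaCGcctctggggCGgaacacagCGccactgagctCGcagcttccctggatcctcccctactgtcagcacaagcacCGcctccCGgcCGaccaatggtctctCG

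The 5 member windows held 1 CG (Adam22 and Ift88os), 2 (Clec12b), 3 (Naaa) and 4 (B230104I21Rik). The Msantd4, Stil and Nabp1 windows held 7, 13 and 15. Among other named members, the window held 0 CG at Gm17767 and 10 at Gm23388, so single windows of both classes overlap. Ratios of observed to expected CpG in the 200 bp around the summit were 1.09 at Gm24270 and 1.18 at Gm24187, above 1.05 at Gm23388. The CpG content of each class as a whole follows later. The next windows show the CTCF motif in 3 members, with the 12 bases of the motif in capitals and the strand chosen so that the motif reads forward.

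Egln2, chr7:27159965-27160024, plus strand: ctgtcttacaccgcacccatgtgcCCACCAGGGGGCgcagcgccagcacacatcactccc

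Gm17767, chr1:51597159-51597218, minus strand: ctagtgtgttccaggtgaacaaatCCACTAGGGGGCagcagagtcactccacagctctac

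Celsr2, chr3:108401762-108401821, plus strand: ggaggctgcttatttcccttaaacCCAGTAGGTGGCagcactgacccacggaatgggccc

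The members stood off their annotated start sites. The median distance from the summit to the nearest TSS was 396 bp in members (quartiles 97 and 832 bp) and 49 bp in promoters with H3K4me3 (quartiles 19 and 107 bp). A TSS lay inside the accessible site itself at 44.3% of members and 93.5% of marked promoters, a difference of -49.2 percentage points (95% Newcombe interval -52.2 to -46.2, with no test). The summit lay within 100 bp of the TSS at 25.4% of members and 73.3% of marked promoters, and over 500 bp away at 43.4% and 5.83%. Members were also narrower, with a median width of 498 bp against 815 bp in marked promoters and 510 bp in distal sites. Their summits fell in introns at 51.9%, in exons at 24.3% and between genes at 23.8%, whereas those of marked promoters fell in introns at 18.3%.

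**Figure D1:**
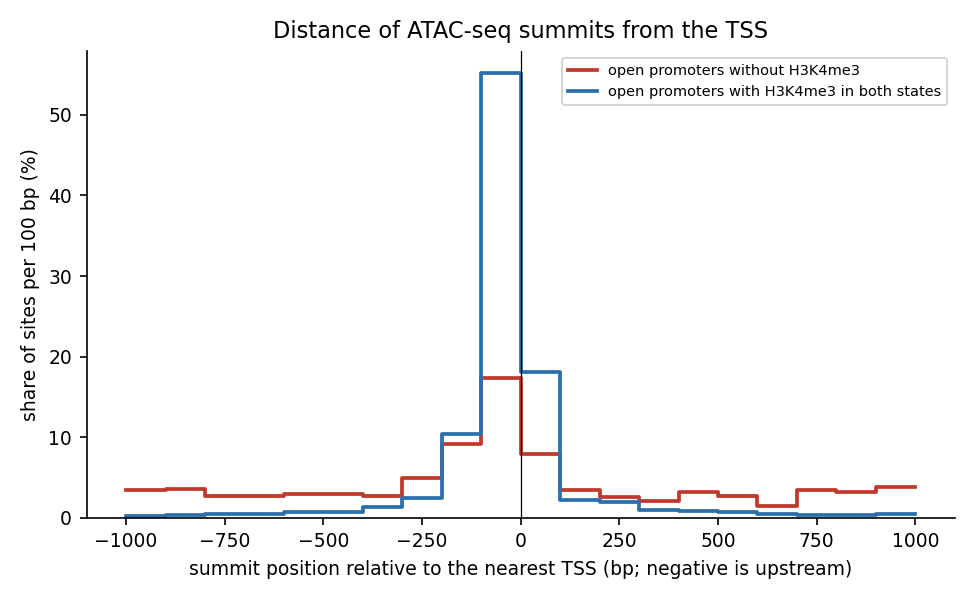
Distribution of ATAC-seq summits around the nearest TSS (horizontal axis, bp, negative values upstream; vertical axis, share of sites in each 100 bp bin, in percent) for the 1069 members (red) and the 11052 promoters with H3K4me3 in both states (blue). The marked promoters form a narrow peak just upstream of the TSS, while the members spread over the whole window, with 25.4% of their summits within 100 bp of the TSS against 73.3%; summits over 1 kb away (13.6% and 1.43%) lie outside the axis.

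The rule fixes 2 edges, and the sites beside them are given as a description. Measured from the edge of a site to the nearest TSS, the members farthest away were near Nr2c2ap (999 bp, mean percentile of fold enrichment 76.8), Gm10775 (997 bp, 39.5) and Gm49613 (996 bp, 62.0). By the same distance, the sites just outside the promoter window were near Gm28783 (1003 bp, 63.0), Gm34307 (1006 bp, 61.5) and Gm15995 (1008 bp, 85.5). On the other edge, the members near Gm2026, Gm36862 and Nrxn2 lay 8, 9 and 9 bp from a H3K4me3 peak, with mean percentiles of 81.4, 34.2 and 74.4. The promoters near Rftn1, Gm33680 and Fgf14 were left out for an overlap of 1, 8 and 9 bp, with mean percentiles of 59.0, 77.9 and 83.2. Few members were so close to the mark. Only 20 of the 1069 lay within 100 bp of a H3K4me3 peak and 62 (5.80%) within 1 kb, while 789 (73.8%) lay more than 10 kb away. The median distance was 26809 bp, with quartiles of 9351 and 70464 bp.

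Fewer members than marked promoters belonged to protein-coding genes. The nearest TSS was of a protein-coding gene at 56.2% of members and 92.2% of marked promoters, a difference of -35.9 points (Newcombe interval -39.0 to -33.0, with no test). Long non-coding RNAs gave the nearest TSS at 25.2% of members against 5.70%, small RNAs at 7.30% against 0.814%, pseudogenes at 6.74% against 0.651%, and TEC loci (an annotation class of transcripts that await experimental evidence) at 4.49% against 0.670%. These groups differed in where the open site lay. The median distance from the summit to the TSS was 343 bp for protein-coding and 336 bp for long non-coding members, and 577.5 bp for small RNA and 559.5 bp for pseudogene members. At the level of genes, 592 of 20807 protein-coding genes (2.85%) had a member within 1 kb of a TSS, and 10907 (52.4%) had a promoter with H3K4me3 in both states.

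Many of the protein-coding members lay near an annotated TSS of a gene that carried H3K4me3 at another TSS. RNA levels were not used here. Of the 601 members nearest to a protein-coding TSS, 347 (57.7%, exact interval 53.7 to 61.7%) belonged to a gene with another TSS, more than 1 kb from the site, within 1 kb of which lay H3K4me3 peaks of both states. The median distance to that marked TSS was 25241 bp, with quartiles of 10391 and 59552 bp. Beside the 57.7%, 52.4% of all 20807 protein-coding genes had a constitutively open promoter with H3K4me3 in both states. These measures differ, and the 57.7% is not shown to be particular to the members. Adam22, which encodes an ADAM family protein without protease activity that serves as a receptor for the secreted synaptic protein LGI1, had its marked TSS 250825 bp away. The marked TSS of Naaa, an acid amidase that degrades fatty acid ethanolamides, lay 13703 bp from its member. For Egfr, the receptor of the EGF in the activating medium, the distance was 125374 bp. The remaining 254 protein-coding members had no such TSS. They lay closer to their start site, at a median of 214.5 bp against 422 bp, and contained a TSS more often (54.3% against 41.2%). Their median ratio of observed to expected CpG was 0.277 against 0.216. The members were nearest to 567 protein-coding genes, of which 212 (226 members) had no H3K4me3 peak of either list in any TSS window.

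The members lacked the CpG density of other promoters. In the 200 bp around the summit, the median ratio of observed to expected CpG was 0.228 (quartiles 0.130 and 0.386) in members, 0.849 in marked promoters and 0.181 in distal sites. The median GC content was 54.5%, 66.5% and 52.0% in the same order. A 1 kb window around the summit had a GC content over 50% and a CpG ratio over 0.6 at 3.27% of members, 77.6% of marked promoters and 0.387% of distal sites. No CG at all occurred in the 200 bp window at 8.61% of members, 0.217% of marked promoters and 13.2% of distal sites. Between members and distal sites, the share of CpG-rich windows differed by 2.89 points (Newcombe interval 1.96 to 4.14, with no test). These measures were not used to choose the members. The median CpG ratio was 0.230 over the whole site and 0.234 over 1 kb.

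**Figure D2:**
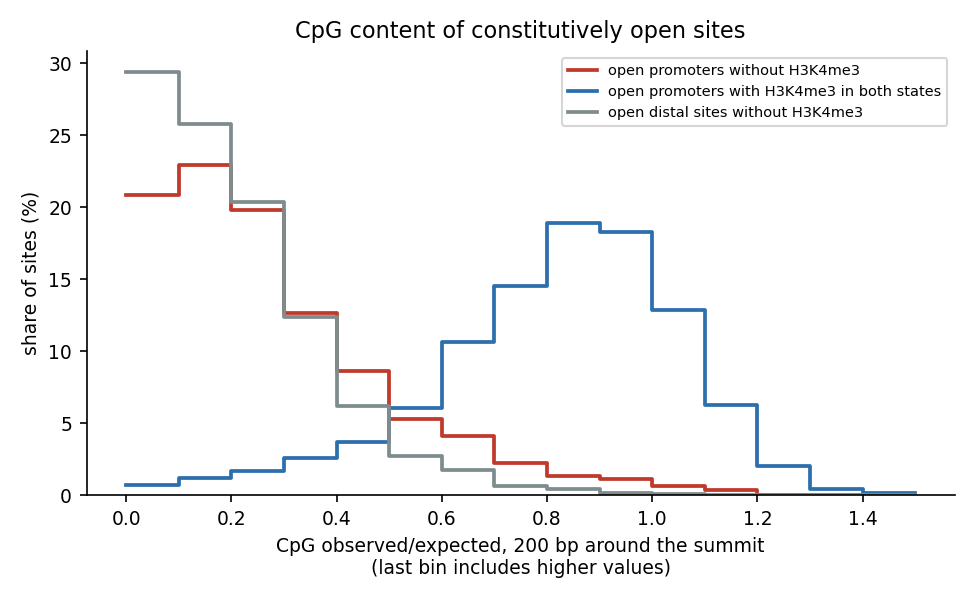
Ratio of observed to expected CpG in the 200 bp around the ATAC-seq summit (horizontal axis, no unit) against the share of sites in each bin (vertical axis, percent) for members, promoters with H3K4me3 in both states and distal sites without H3K4me3. The members follow the distal sites at low ratios, with medians of 0.228 and 0.181, and the marked promoters centre on 0.849.

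A minority of 35 members met the CpG-rich criterion in spite of having no H3K4me3. Of these, 24 were nearest to a protein-coding TSS, 27 contained a TSS and 25 lay more than 10 kb from any H3K4me3 peak. The one closest to a H3K4me3 peak lay 25 bp away. By the definitions given further on, 6 of the 35 were copied, mitochondrial-like or repeat-masked. The following were picked by their values. The site at Ddx43, an RNA helicase gene of germ cells, had the highest CpG ratio of the 35 over 1 kb (0.997), lay 17061 bp from the mark and had fold enrichments of 3.55 and 3.52 (quiescent), 2.92 and 3.14 (activated) and 6.00 and 8.38 (reactivated). Its accessibility was low in quiescent and activated libraries. The site at Snai1, a repressor of epithelial genes, was 33041 bp from the mark and gave 5.01 and 5.58, 6.05 and 6.75, and 12.3 and 9.83 in the same order. The site at Sertm1 was 106777 bp from the mark and gave 9.20 and 9.86, 15.4 and 11.1, and 20.7 and 18.5. None of the 3 was called different between quiescent and activated NSPCs by the limma test described further on (adjusted p of 0.141, 0.922 and 0.285).

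In sequence motifs the members resembled distal sites more than promoters. Each motif was searched on both strands in the 200 bp around the summit, and the shares are descriptions of sites with no test. CTCF motifs, matched over 12 letters, occurred at 5.80% of members (62 sites), 1.05% of marked promoters, 5.93% of distal sites and 3.34% of all constitutively open sites. The difference between members and marked promoters was 4.75 points (Newcombe interval 3.48 to 6.33), and that between members and distal sites -0.13 points (-1.48 to 1.51). The E-box CANNTG, bound by basic helix-loop-helix factors, occurred at 72.6% of members, 42.0% of marked promoters, 74.3% of distal sites and 57.3% of all. The SOX-type motif ACAAAG occurred at 20.5%, 7.08%, 23.2% and 14.8% in the same order, and the AP-1 motif TGANTCA at 6.83%, 2.27%, 9.34% and 5.55%.

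Motifs of CpG-rich promoters were correspondingly scarce in members. GGGCGG, the GC box of SP and KLF factors, occurred at 12.0% of members, 65.9% of marked promoters, 6.10% of distal sites and 37.3% of all. GCNTGCGC of NRF1 occurred at 2.15%, 19.6%, 1.26% and 10.8% in the same order. CCGGAAG of ETS factors occurred at 1.96%, 15.8%, 1.39% and 8.71%. The cyclic AMP response element TGACGT was at 2.53% of members and 11.0% of marked promoters, with 6.78% over all sites. Each of these 4 motifs contains a CG. Of the motifs without one, CCAAT occurred at 21.9% of members, 34.2% of marked promoters and 28.5% of all sites, and the YY1 motif AAGATGG at 3.09%, 5.08% and 4.00%. The TATA box TATAAA was found at 3.74%, 2.03% and 3.35%. TTGGC, the core of the NFI motif, overlaps CCAAT where ATTGGC occurs and was found at 50.1%, 41.3% and 46.7%. Distal sites held TGACGT at 2.23%, CCAAT at 22.8%, AAGATGG at 3.19%, TATAAA at 4.96% and TTGGC at 53.2%.

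The median mean percentile of fold enrichment was 57.5 in the 62 members with a CTCF motif and 60.3 in the 1007 without, and the former were narrower, with a median of 330 bp against 512 bp. The strongest one lay in an intron of Egln2, which encodes an oxygen-sensing prolyl hydroxylase, at chr7:27159872-27160304. This site gave 9.00 and 11.9 in the quiescent libraries, 13.7 and 9.73 in the activated and 13.1 and 14.99 in the reactivated ones. These and all other fold enrichments given per library are the deposited values without scaling, which ran higher in the reactivated libraries over all sites. The site at Celsr2, an atypical cadherin of planar cell polarity, lay in an intron at chr3:108401678-108402155 with 5.42 and 8.02, 8.88 and 7.39, and 9.79 and 10.3. The intergenic site near the long non-coding RNA Gm17767, at chr1:51597031-51597309, had 8.28 and 6.95, 8.75 and 7.27, and 11.7 and 12.8. Quiescent and activated values overlapped at all 3 sites, and after scaling none of the 3 was called between any pair of states by limma. The other 2 of the 5 strongest CTCF members were near D430018E03Rik and Tspan32os, with mean percentiles of 85.8 and 78.9.

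Fold enrichment is the height of the peak summit over the local background of the same library, as the peak caller gave it, and its percentile is the rank of a site among all merged sites of that library. Members were weaker than marked promoters in all 6 libraries. The median percentile of members was 55.5 and 60.3 in the quiescent libraries, 58.0 and 49.7 in the activated and 76.2 and 77.2 in the reactivated ones. The corresponding medians of marked promoters were 80.3 and 83.3, 80.7 and 77.7, and 87.0 and 88.1. Distal sites gave 59.4 and 62.8, 60.8 and 52.0, and 79.3 and 79.1, each above the members of the same library. The reactivated libraries also had the longest lists (103186 and 103783 peaks on chromosomes 1 to 19), and the part of list length in their higher percentiles was not tested. The median fold enrichment of members was 4.73 and 4.34, 5.70 and 4.83, and 8.72 and 9.04 in the 3 states. The median summit height recovered from these values was 41 and 60 fragments for the quiescent libraries, 47 and 37 for the activated and 92 and 88.5 for the reactivated ones, so counting error was larger in the first 4 libraries. Presence of a peak in every list was part of the rule, so these levels describe the members and are not tested.

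**Figure D3:**
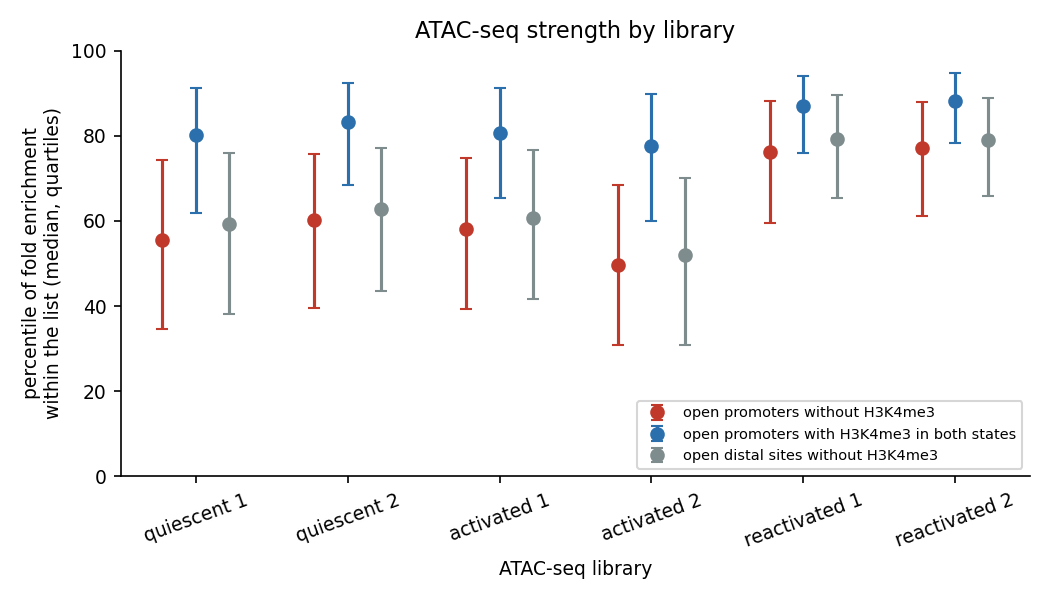
Percentile of fold enrichment of each site among all merged sites of the library (vertical axis) in the 6 ATAC-seq libraries (horizontal axis) for members, promoters with H3K4me3 in both states and distal sites without H3K4me3; points are medians and lines span the quartiles. The median of members lies below that of marked promoters in each library, by 55.5 against 80.3 in the first quiescent library and 77.2 against 88.1 in the second reactivated one.

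Of the 10 strongest members, 5 had near-identical copies or resembled mitochondrial DNA, beside 6.92% of all members. In all, 8 members resembled mitochondrial DNA over at least 50% of their length, against 0 marked promoters, and are copies of it in the nuclear genome. The strongest were the pseudogenes Gm11407, with 99.8% of its length matched at 93.0% identity, and Gm4076, with 94.5% matched at 94.96% identity. Gm11407 gave 26.7 and 26.3, 27.7 and 26.7, and 26.3 and 27.04 across the 3 states. Gm4076 gave 20.0 and 19.8, 22.7 and 23.7, and 22.1 and 22.1. Both were nearly level across the 6 libraries. Gm20594, matched over 79.8%, was not level and is described with the comparisons. Reads of mitochondrial DNA and of these nuclear copies may not be separable by alignment, and how the reads of these members were placed was not tested.

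Further strong members had near-identical copies elsewhere in the genome, defined as at least 95% identity over at least 50% of the site. Such copies occurred at 6.83% of members, 1.82% of marked promoters and 2.84% of distal sites. The search did not start a match in sequence that the assembly masks as repeat, so copies in repeats may be undercounted. The pseudogenes Gm12896 and Gm12895 were copies of each other, with mean percentiles of 99.13 and 99.02. The member in an intron of Mphosph8, whose protein reads methylated lysine 9 of histone H3, had 9 copies and fold enrichments of 16.5 and 13.2, 20.9 and 16.6, and 13.5 and 19.3. The microRNA loci Gm24270, which had no such copy, and Gm24187, with 3 copies, had CpG ratios of 1.09 and 1.18 and fold enrichments between 22.1 and 27.8 over all libraries. Beside Gm24270, strong members without copies or mitochondrial similarity included the long non-coding RNA 1700054K19Rik (13.7 and 13.9, 16.3 and 16.8, 17.5 and 22.03), Gm44190 (14.7 and 14.5, 16.8 and 12.5, 20.2 and 20.2) and the protein-coding Gm20715 (19.3 and 14.8, 15.99 and 11.3, 20.3 and 20.0). Naaa (12.6 and 14.5, 18.2 and 14.97, 17.6 and 17.3) and Dthd1, which encodes a death domain protein (12.0 and 14.1, 14.7 and 9.74, 16.4 and 19.3), were also among them.

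Members with copies had a median mean percentile of 42.4 (73 sites) against 60.1 over all members. Some stood in runs. At chr7:59733220-59859972, 14 members near small RNA genes followed each other, 10 of them with copies, with median fold enrichments of 2.90 to 3.33 in the 6 libraries. At chr5:15463357-15681553, 11 members lay among Speer4d and related genes, 10 with copies. At chr9:3001958-3034813, 12 members lay in sequence that the assembly masks as repeat over at least 94% of the 200 bp around each summit and in full at 9 of them. In the chr7 run 9 of the 14 were masked in full, and the lowest share was 9%. The chr9 members had median fold enrichments of 2.31 to 2.64. Their median local background was 516 to 980 fragments in the 5 libraries where any could be recovered, medians that rest on 2 to 8 of the 12 members in each, and their median mean percentile was 5.96. Without the copied, mitochondrial-like and repeat-masked sites, 959 members remained.

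Few genes of the gene families examined had a member. Olfactory receptors, which NSPCs are not known to use, had 3 of 1397 (Olfr1069-ps1, Olfr552 and Olfr658) and vomeronasal receptors 2 of 559 (Vmn1r199 and Vmn2r4). The background was 2.15% of all 51229 annotated genes. The fold enrichment of Olfr658 was 5.52 and 5.27, 5.70 and 5.13, and 4.67 and 3.99. Of 406 zinc finger genes named Zfp, 323 had a promoter with H3K4me3 and 4 had a member, Zfp966, Zfp967, Zfp968 and Zfp969 on chromosome 2. For each of the 4 sites 19 near-identical copies were found. The search kept a limited number of matches per chromosome, so the true number may be higher. The authors' alignment may have split or shared reads among these copies. Their fold enrichments ranged from 4.99 to 11.0 in quiescent and activated and from 13.6 to 17.6 in reactivated libraries. On the scaled values limma called none of the 4 between reactivated and quiescent NSPCs (log2 differences of 0.37 to 0.62, adjusted p of 0.0502 to 0.292). Against activated NSPCs Zfp966 was not called, and the calls at the other 3 were lost without either reactivated library. No member was found at 88 ribosomal protein genes (76 with a marked promoter), 57 clustered protocadherins, 55 keratins, 39 Hox genes, 14 immune cell genes or 9 AP-1 genes.

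Single members touched genes of other lists. Egfr, on the list of 12 NSPC markers of which 11 had a marked promoter, had a weak internal member at chr11:16877604-16878281 that contained an annotated TSS, with fold enrichments of 3.02 and 2.45, 3.45 and 2.57, and 5.07 and 4.65. Dmrtb1, a germ cell transcription factor and the only one of 17 germline genes with a member, gave 3.55 and 3.59, 6.58 and 4.71, and 8.83 and 7.54. Ttr, the thyroxine carrier transthyretin and the only one of 13 liver genes, gave 5.34 and 4.59, 4.11 and 3.28, and 3.60 and 4.92. Ttr passed the limma test between quiescent and activated NSPCs (log2 difference 0.705 ± 0.17 SE, adjusted p = 0.0331), but lost this call when any 1 of the 6 libraries was left out, without scaling (0.43), with cyclic loess scaling and with the mean of the peaks of a site. Between reactivated and quiescent NSPCs its log2 difference was -0.96 (limma adjusted p = 0.00635), a call lost without scaling (-0.23) and without the first reactivated library.

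The question of the study was how accessibility differs between quiescence and activation. Fold enrichments were compared on the log2 scale by limma over all 22589 constitutively open sites after quantile scaling, with Benjamini-Hochberg adjustment and a threshold of 0.05. The rule required a peak in every list, so no member can be gained or lost, and the test sees changes in height only. In bulk libraries such as these, fewer cells with an open site and less accessibility per cell cannot be told apart. Between quiescent and activated NSPCs, 161 of 1069 members (15.1%, exact interval 13.0 to 17.3%) were called, against 9.61% of all sites tested. Of these 82 were higher in quiescent and 79 higher in activated NSPCs, where the shares of all sites were 4.3% and 5.3%. Of the marked promoters 2.57% were called and of the distal sites 17.2%. At an unadjusted p under 0.05 there were 369 members (34.5%), beside 23.8% of all sites. Without scaling the split of called members was 41 higher and 141 lower in quiescent NSPCs (3.84% and 13.2%, beside 1.90% and 9.63% of all sites), while median centring gave 92 and 86 (8.61% and 8.04%, beside 5.26% and 5.76%). The median log2 difference of all sites was -0.15 without scaling and 0.017 with it. The number of called members fell to 65 and 91 without the first or second quiescent library and to 89 and 82 without the first or second activated one. These are 6.08%, 8.51%, 8.33% and 7.67% of members, beside 3.76%, 5.48%, 6.10% and 4.41% of all sites in the same fits. With the mean rather than the highest peak of a site, 34 were higher and 39 lower in quiescent NSPCs (6.83%, beside 4.13% of all sites).

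**Figure D4:**
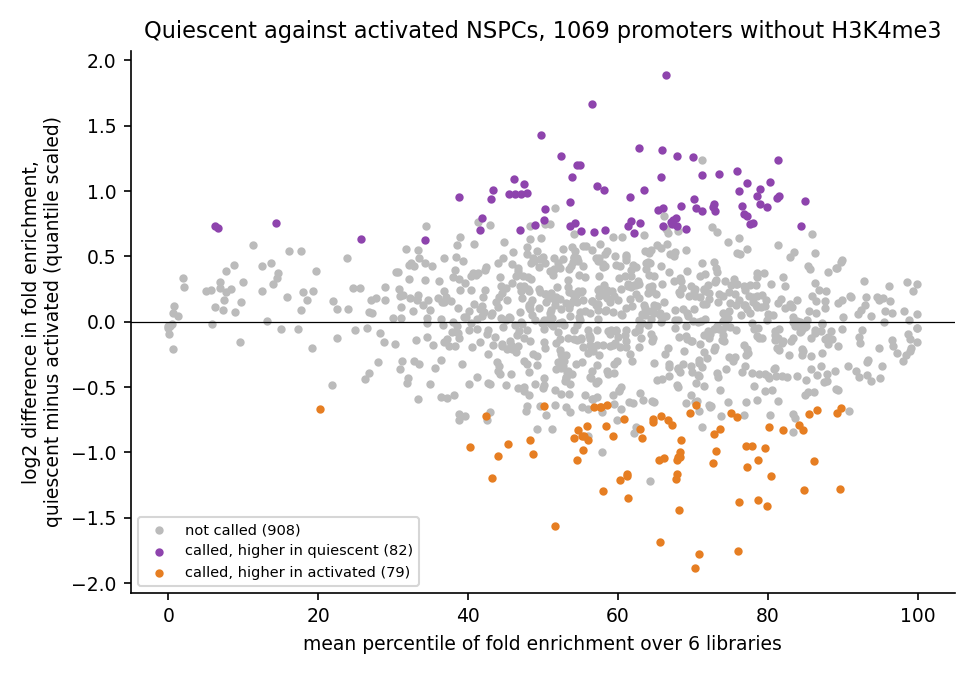
Log2 difference in fold enrichment, quiescent minus activated after quantile scaling (vertical axis), against the mean percentile of fold enrichment over the 6 libraries (horizontal axis) for each of the 1069 members. The 82 members called higher in quiescent NSPCs (purple) and the 79 called higher in activated NSPCs (orange) occur over the middle and upper range of strength, and 908 were not called (grey).

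The members higher in quiescent NSPCs were 46 of the 601 members nearest to a protein-coding gene, 17 of 269 at long non-coding RNAs, 8 of 78 at small RNAs, 5 of 72 at pseudogenes and 5 of 48 at TEC genes. Those higher in activated NSPCs were 41, 30, 1, 5 and 2 of the same totals, with no test between the classes. The site with the largest difference towards quiescence was near an internal annotated TSS of Adam22, at chr5:8116545-8117157, whose sequence is given above. This site gave 14.9 and 11.2 in the quiescent libraries, 4.38 and 3.14 in the activated and 8.94 and 8.25 in the reactivated ones. In unscaled fold enrichment the quiescent libraries were high, the activated low and the reactivated between them, with no overlap, while the scaled log2 difference between reactivated and activated NSPCs was 0.576 and was not called (limma adjusted p = 0.0757). The log2 difference between quiescent and activated NSPCs was 1.885 ± 0.19 SE (limma, adjusted p = 0.00267).

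Another 4 members followed. Clec12b, a C-type lectin receptor of myeloid cells, had a member at chr6:129384772-129385619 with 7.21 and 9.63 in the quiescent libraries, 4.24 and 3.28 in the activated and 9.15 and 8.37 in the reactivated ones (log2 difference 1.33 ± 0.19 SE, limma adjusted p = 0.00416). Immune cell genes as a list had no member, and ATAC-seq peaks lay at the promoters of 2 and 1 of the 14 in the quiescent libraries and of 0 in the activated and reactivated ones. For microglia and blood markers the numbers were 1 and 1 of 8 in the quiescent libraries, 1 and 2 in the activated and 2 and 2 in the reactivated ones. The part of other cells at Clec12b was not tested. The member near Ift88os, an antisense RNA at the gene of the ciliary transport protein IFT88, lay at chr14:57509479-57510008 and gave 8.42 and 6.496, 3.05 and 3.85, and 14.7 and 14.7 (1.31 ± 0.21 SE, limma adjusted p = 0.00651). Activated libraries were lowest, and the reactivated ones were above the quiescent ones in unscaled fold enrichment, while the scaled log2 difference between reactivated and quiescent NSPCs was 0.27 and was not called (limma adjusted p = 0.357). Gm26329, a non-coding RNA on chromosome 15, gave 7.95 and 7.42, 2.92 and 2.85, and 9.23 and 8.98 (1.67). Gm22860, a microRNA locus 2858 bp from a H3K4me3 peak, gave 6.96 and 6.17, 3.71 and 2.51, and 5.73 and 6.16 (1.43). At these 4 sites the quiescent and activated values did not overlap.

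Of the members higher in activated NSPCs, the largest difference was at the long non-coding RNA 4833413E03Rik, chr17:31557336-31557845. It gave 2.50 and 3.44 in the quiescent libraries, 14.5 and 9.76 in the activated and 15.7 and 13.1 in the reactivated ones (log2 difference -1.89 ± 0.27 SE, limma adjusted p = 0.00416). A930003A15Rik, another long non-coding RNA, contained its TSS at chr16:19884148-19884512 and gave 3.02 and 2.98, 11.7 and 11.8, and 14.8 and 16.2 (-1.78 ± 0.17 SE, limma adjusted p = 0.00234). Rapgef3 encodes EPAC1, a cyclic AMP-activated exchange factor of the small GTPase RAP1, and its member at chr15:97750413-97751070 covered an exon and a TSS. It gave 2.89 and 4.13, 13.1 and 13.6, and 16.4 and 15.6 (-1.75 ± 0.24 SE, limma adjusted p = 0.00396). The quiescent libraries stood alone as low at all 3 sites. On the scaled values the differences between reactivated and activated NSPCs were -0.26, -0.09 and -0.21 at these sites, and none was called (limma adjusted p of 0.526, 0.753 and 0.575).

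The protein-coding gene B230104I21Rik, at chr4:154335744-154336371, gave 2.49 and 2.22 in the quiescent libraries, 7.98 and 6.00 in the activated and 8.71 and 10.4 in the reactivated ones (log2 difference -1.57). The long non-coding RNA AC115692.1 gave 3.16 and 2.52, 12.7 and 8.08, and 13.4 and 13.3 (-1.69). All 10 members named for this comparison kept an adjusted p under 0.05 in limma when any 1 of the 6 libraries was left out. Clec12b lost its call when the mean rather than the highest peak of a site was used.

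**Figure D5:**
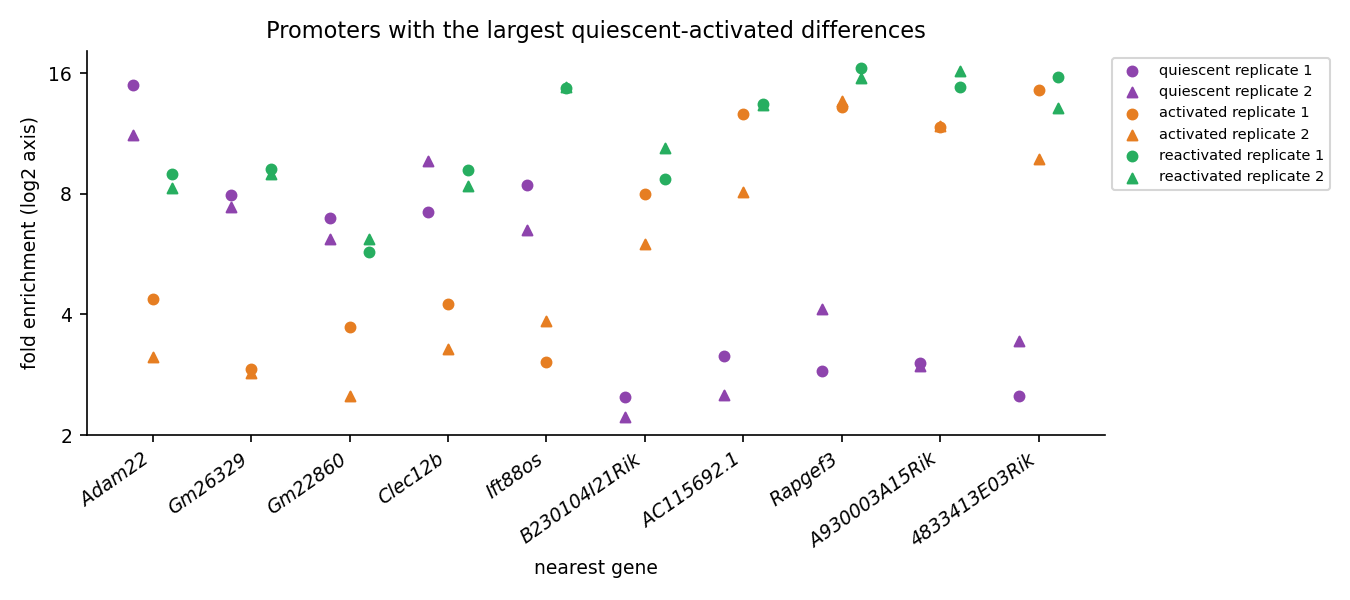
Fold enrichment in each ATAC-seq library (vertical axis, log2 scale) for the 5 members with the largest called difference in each direction between quiescent and activated NSPCs (horizontal axis, nearest gene). Circles and triangles are replicates 1 and 2; quiescent (purple) and activated (orange) points do not overlap at any of the 10 sites.

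Between quiescence and activation, the CTCF motif was present at 1 of 82 members higher in quiescent, 0 of 79 higher in activated and 61 of 908 not called (6.72%). The exact interval for 0 of 79 reaches 4.56%. The NFI core TTGGC was at 62.2%, 51.9% and 48.9% of these same 3 groups, and the E-box CANNTG at 74.4%, 86.1% and 71.3%. The AP-1 motif TGANTCA was at 11.0%, 11.4% and 6.06%. In the comparison of reactivated with activated NSPCs the CTCF motif was at 1 of 77 higher and 3 of 53 lower members (5.66%), and TTGGC at 51.9% and 39.6%. In that of reactivated with quiescent NSPCs the CTCF motif was at 0 of 168 higher and 8 of 128 lower members (6.25%), and TTGGC at 53.6% and 44.5%. These shares carry no test.

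Reactivated NSPCs were compared with the same activated and quiescent libraries, so the 3 comparisons share libraries and are not independent. Against activated NSPCs, 130 members (12.2%) were called, 77 higher and 53 lower in reactivated NSPCs, beside 13.3% of all sites, of which 7% were higher and 6.3% lower. The share of members was thus close to the background. No member was called when the first or the second reactivated library was left out, with 212 and 243 members (19.8% and 22.7%) at an unadjusted p under 0.05 beside 21.1% and 23.4% of all sites, and 2 were called without the second activated library. Without scaling, 579 members (54.2%) were higher and 10 lower, beside 49.8% and 0.35% of all sites, and with median centring 77 and 118 (7.20% and 11.0%), beside 6.45% and 9.80%. With the mean of the peaks of a site 61 were higher and 16 lower (5.71% and 1.497%, beside 4.71% and 3.28% of all sites). The median log2 difference of all sites was 0.55 without scaling and -0.03 with it.

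The largest differences towards reactivated NSPCs were at Ift88os (log2 difference 1.58), Gm48809 (1.58), Bbox1 (1.52), Col9a1 (1.34) and Vwc2l (1.29). Bbox1, the last enzyme of carnitine synthesis, had a member over its TSS at chr2:110314442-110314996 with 8.68 and 6.73 in the quiescent libraries, 4.77 and 3.42 in the activated and 16.4 and 15.7 in the reactivated ones (limma adjusted p = 0.00826). Col9a1, a chain of collagen IX, gave 4.05 and 5.12, 3.18 and 3.37, and 12.2 and 12.4 (limma adjusted p = 0.0106). Vwc2l, a secreted protein with von Willebrand factor C domains, gave 6.84 and 7.64, 5.17 and 3.85, and 15.2 and 15.7 (limma adjusted p = 0.00924). At these 3 sites the reactivated libraries had the highest unscaled fold enrichments, without overlap. On the scaled values the log2 difference between reactivated and quiescent NSPCs was not called at Bbox1 (0.404, limma adjusted p = 0.132) or Vwc2l (0.41, adjusted p = 0.09997). At Col9a1 it was 0.602 (limma adjusted p = 0.0495), a call that held in 1 of 6 fits with a library left out, that without the second quiescent one, and that was lost with median centring, cyclic loess scaling and the mean of the peaks of a site.

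The largest differences towards activated NSPCs were at Gm23388 (-1.19), Gm24245 (-1.19), Nfix (-1.11), Gm12895 (-1.08) and Gm15564 (-1.08). Nfix encodes a nuclear factor I protein, and its member, in an intron at chr8:84709213-84709524, held a CTCF motif. It gave 5.14 and 3.41, 7.69 and 5.72, and 4.24 and 4.54 (limma adjusted p = 0.0141), a call also lost without scaling (log2 difference -0.596). Gm12895, a pseudogene with a near-identical copy, gave 25.7 and 25.7, 30.6 and 29.7, and 15.1 and 19.02. Gm15564, an antisense RNA 534 bp from a H3K4me3 peak, gave 24.1 and 25.7, 26.8 and 28.1, and 14.7 and 17.7. The reactivated values of these last 2 were below all others. As stated, none of these calls in the comparison with activated NSPCs held without either reactivated library.

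Between reactivated and quiescent NSPCs, 296 members (27.7%) were called, 168 higher and 128 lower in reactivated NSPCs, beside 23.9% of all sites, of which 11.7% were higher and 12.2% lower. The number fell to 46 and 121 without the first or the second reactivated library and to 168 and 171 without the first or the second quiescent one. These are 4.30%, 11.3%, 15.7% and 15.996% of members, beside 3.14%, 8.96%, 11.9% and 12.0% of all sites. Without scaling 712 (66.6%) were higher and 13 lower, beside 66.2% and 0.43% of all sites, and with median centring 165 and 221 (15.4% and 20.7%), beside 11.2% and 22.4%. The mean of the peaks of a site gave 145 and 58 (13.6% and 5.43%, beside 9.02% and 7.42%). Here the median log2 difference of all sites was 0.73 without scaling and -0.04 with it. The direction of a typical member in comparisons with reactivated NSPCs therefore depends on the scaling. Near-identical copies were present at 25 of the 128 lower, 1 of the 168 higher and 47 of the 773 members not called. In the comparison with activated NSPCs they were at 11 of 53 lower, 4 of 77 higher and 58 of 939 members not called. These counts carry no test. The same counts over all constitutively open sites are not given here, so the split cannot be read as particular to the members.

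The largest difference towards reactivated NSPCs was at Gm20594, which resembles mitochondrial DNA over 79.8% of its length. It gave 5.13 and 6.27 in the quiescent libraries, 16.8 and 15.4 in the activated and 28.6 and 32.3 in the reactivated ones (log2 difference 2.11 ± 0.18 SE, limma adjusted p = 0.00194). The 3 states were separate in unscaled fold enrichment. The scaled log2 difference between reactivated and activated NSPCs was 0.83 (limma adjusted p = 0.0205), a call lost with median centring (0.26), with cyclic loess scaling and without any 1 of the 4 activated and reactivated libraries. Whether reads of mitochondrial DNA contributed was not tested. Zbtb38, a zinc finger protein that binds methylated CpG, contained its TSS in an exon at chr9:96752592-96753208 and gave 3.16 and 3.52, 9.31 and 6.27, and 15.98 and 18.1 (1.68 ± 0.19 SE, limma adjusted p = 0.00201). Ttc29, a sperm axoneme protein, gave 2.50 and 3.21, 9.02 and 5.42, and 16.5 and 12.6 (1.69), a call lost without the first reactivated library. A930003A15Rik (1.69) and 4833413E03Rik (1.62, lost without the first reactivated library) followed.

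The largest differences towards quiescent NSPCs were at Asb4 (-1.33), Adam22 (-1.31), Srrm3 (-1.29), Sucnr1 (-1.26) and Oasl1 (-1.22). Asb4, an ankyrin repeat protein with a SOCS box, gave 7.16 and 7.64 in the quiescent libraries, 6.63 and 4.28 in the activated and 4.54 and 5.26 in the reactivated ones (limma adjusted p = 0.0031). Srrm3, a neural splicing factor, had a member with a CTCF motif that contained its TSS, at chr5:135806671-135807089, with 6.996 and 6.42, 6.84 and 5.89, and 4.80 and 4.26 (limma adjusted p = 0.00224). The reactivated values were below the quiescent ones at both sites. Oasl1, an interferon-induced protein, gave 8.79 and 10.02, 5.84 and 5.30, and 7.20 and 6.52 (limma adjusted p = 0.00288), and lost its call without scaling. Sucnr1, the succinate receptor, gave 13.8 and 9.55, 4.51 and 5.70, and 4.94 and 11.8 (limma adjusted p = 0.0278). Its reactivated libraries differed from each other and overlapped the quiescent ones, and its call was lost without either quiescent library or the first reactivated one, without scaling (-0.59) and with the mean of the peaks of a site.

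Of the 1069 members, 662 (61.9%) were called in none of the 3 comparisons under quantile scaling, beside 68.1% of all sites, and 407 (38.1%) in at least 1. A site that was not called is not thereby shown to have kept its height. The median absolute log2 difference of members was 0.302 between quiescent and activated, 0.31 between reactivated and activated and 0.38 between reactivated and quiescent NSPCs, beside 0.22, 0.29 and 0.33 over all sites. A difference of at least 2-fold on the scaled values was reached by 59 (5.52%), 35 (3.27%) and 88 (8.23%) members, beside 3.52%, 2.43% and 5.37% of all sites. The standard deviation between replicates on the log2 scale was 0.22 in quiescent, 0.23 in activated and 0.19 in reactivated NSPCs (n = 2 libraries each). In 2 of the comparisons, which use the same quiescent libraries, 53 members (4.96%) were called lower in quiescent than in both activated and reactivated NSPCs, beside 3.77% of all sites. The opposite pair of calls was made at 29 members (2.71%), beside 1.47% of all sites.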

How the data were processed

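The deposited files are peak lists, 1 per library, and no reads were used. Per the labels and the study's methods, the authors trimmed reads with Trim Galore 0.4.0, aligned them to mm10 with Bowtie2 2.2.5, removed duplicates with Picard 1.88 and SAMtools 1.3.1 and called peaks with MACS, in broad mode against input for H3K4me3. Reactivated reads were reduced in number before calling. The authors deposited, for each peak, a fold enrichment (a ratio to local background, not scaled between libraries), −log10 p and q values, which grow with depth, a score derived from q and a summit position. Fold enrichment and summits were analysed, −log10 values set thresholds in alternatives, and the score was not used.

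Peaks were merged in Python 3.11.15, and TSSs were taken from GENCODE for mm10. The members, gene lists and motifs were chosen with earlier results of these data known. A site took its highest peak in each library. States were compared with limma 3.58.1 (R 4.3.3) on quantile-scaled log2 values of all 22589 constitutively open sites, with no covariate and no pseudocount. On simulated data this recovered 84% of changes of 1 and 100% of changes of 2 on the log2 scale between quiescent and activated NSPCs over 22589 sites. The simulated noise had the same spread at every site and in every library, so recovery in the real data may be lower. The count test of the study needs reads and was not run. Summit heights were recovered as whole fragments for 98.5 to 99.3% of members, where a whole number gave the deposited −log10 p within 0.02% of its value. Copies were searched with BLAST 2.17.0. Repeat-masked sequence could not start a match, and the number of matches per chromosome was limited. Intervals of shares are exact or Newcombe at 95% and cover counting of sites only.

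Named members were the 10 strongest by mean percentile and the 5 strongest protein-coding ones, the 5 called members with the largest difference in each direction per comparison, up to 4 per gene list, the 5 strongest with a CTCF motif, the 3 strongest more than 10 kb from H3K4me3, and 3 sites on each side of each threshold. Some of the strongest members are not reported here. Some further sites, named as such, were picked by their values. Alternatives varied the peak thresholds, list lengths, promoter window, TSS set, H3K4me3 overlap, scaling, pseudocount, filter, peak summary and replicate block, and left out each library. The replicate differences of same-numbered libraries correlated across sites at 0.010, 0.026 and -0.006 for the 3 pairs of states. No shared replicate effect was seen, which does not settle whether same-numbered libraries were prepared together.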

Additional observations from a re-analysis of the deposited data

How the results depend on the processing

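The number of members (1069) fell to 452 with peaks of −log10 q of 10 or more and to 616 with protein-coding TSSs alone, and ranged from 1077 to 1301 with 1 ATAC-seq library left out. Their share of constitutively open promoters (8.69%) was 4.77% with the stricter ATAC-seq peaks, 6.80% with lists limited to the length of the shortest, 6.42% with a window of 500 bp, 12.2% with a window of 2 kb, 5.42% with protein-coding TSSs, 8.185% with H3K4me3 peaks widened by 1 kb, 10.4% where H3K4me3 had to cover 50% of the site, 11.0% with H3K4me3 peaks of −log10 q of 10 or more, 8.02% without copied, mitochondrial-like or soft-masked sites (an alternative chosen after seeing the data) and 8.73 to 10.1% with 1 library left out. The members called between quiescent and activated NSPCs (161) numbered 73 with the mean of the peaks of a site (6.83%, beside 4.13% of all sites) and 65 to 123 with 1 library left out. Between reactivated and activated NSPCs (130) they numbered 589 without scaling, 77 with the mean of the peaks (7.20%, beside 7.99% of all sites) and 0 to 120 with 1 library left out, and between reactivated and quiescent NSPCs (296) they numbered 725 without scaling and 46 to 317 with 1 library left out. In the fits that leave a state with 1 library, that library is assumed to vary like the others. With the replicate block, the counts were 164, 124 and 293 (15.3%, 11.6% and 27.4%, beside 9.55%, 12.1% and 23.1% of all sites), and whether the replicate numbers pair the libraries is not settled. Without the copied, mitochondrial-like and soft-masked sites they were 153, 109 and 259 (15.95%, 11.4% and 27.01%, beside 9.77%, 13.1% and 23.4% of all sites so filtered). Without scaling, the differences between reactivated and quiescent NSPCs reversed at Gm26329 (0.245), Clec12b (0.0714) and Nfix (0.0679). The cause of these changes was not tested, except that stricter lists hold fewer peaks. Of the named members called in each comparison, 11 of 19, 0 of 21 and 9 of 27 remained called under every alternative. H3K4me3 had no replicate in either state, and the effect of depth was not tested.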
